A study of Mus musculus with 24 samples.

Results

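The vesicle fusion and granule exocytosis genes are 37 genes for the proteins that carry, dock and fuse the granules of a secretory cell. They were taken by symbol from the gene counts of every library, and all 37 were found among 24982 symbols. Of the 37, 36 had enough counts to be tested. Vamp7 had 0 counts in all 24 libraries.

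The cells were eosinophils sorted from the bone marrow of wild type C57BL/6 mice at 4 successive stages of maturation, I to IV. One set came from mice given 400 ng of recombinant murine interleukin 33 (IL-33) into the peritoneum each day for 7 days. IL-33 is a cytokine of damaged tissue that drives eosinophilia. The other set came from untreated mice in steady state. Each of the 8 groups of condition and stage held 3 libraries, and each library was made from marrow pooled from 3 mice. The series calls these triplicates biological. Neutrophils and lymphoid cells were depleted first through Ly6G, CD90.2, CD45R and NK1.1. The stages were then sorted with antibodies that included Siglec-F, CD117, CD29, CD55 and CD200R3. The labels do not give the marker levels that define each stage.

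Fusion of a granule with the plasma membrane is driven by SNARE proteins. An R-SNARE of the granule, a VAMP, zips together with Q-SNAREs of the target membrane, a syntaxin and a member of the SNAP-25 family. Sec1/Munc18 (SM) proteins such as Stxbp2 hold the syntaxin and guide the zippering, Munc13 proteins prime the granule, and small GTPases of the Rab family with their effectors bring it to the membrane and tether it. NSF and its adaptor then take the spent complex apart. Mature eosinophils store cationic proteins in crystalloid granules and release them by exocytosis or piecemeal in small vesicles, and granules are built while the cells are still in the marrow.

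Libraries held 8335138 to 14909453 gene counts. Reads assigned to no gene made up 9.19% to 16.6% of counted reads under IL-33 and 17.8% to 30.5% in steady state, so this share cannot be told apart from the condition. The 4 steady-state libraries numbered 3, called the third steady-state pool below, stood apart. The labels give numbers alone and do not say that these 4 share mice. Jun, an immediate early gene, had 3331 to 5018 CPM (counts normalised to the size of the library) in these 4 libraries and 875 to 2142 CPM in the other 20. Ddx3y, a gene of the Y chromosome, had 174 to 384 CPM in these 4 and 35.3 to 86.3 CPM in the other 20. What set these libraries apart was not tested. The eosinophil granule genes Epx, Prg2, Prg3, Ear1, Ear2, Ear6 and Ear10 were all detected in every group. Their summed level under IL-33 was 29367 to 39869 CPM at stage I, 32935 to 36170 at II, 27970 to 33823 at III and 18120 to 24184 at IV. In steady state the same sum was 29424 to 37231 CPM at stage I, 27691 to 41030 at II, 13608 to 22652 at III and 399 to 1248 at IV.

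Markers of other cells moved with stage and condition as well. The summed level of 16 neutrophil genes, none of them at 0, was 4940 to 10216 CPM at IL-33 stage I and 2120 to 4794 at II. At IL-33 stage III it was 2784 to 4020 CPM, and at IV 6405 to 11143. In steady state it was 7311 to 13558 CPM at stage I and 24056 to 29465 at II. At steady-state stage III it was 19967 to 23907 CPM, and at IV 11423 to 26859. The sum of 16 monocyte and macrophage genes, none at 0, was 3014 to 3236 CPM at IL-33 stage IV and 805 to 1454 CPM at the earlier IL-33 stages. In steady state that sum was 622 to 681 CPM at stage I, 1703 to 2669 CPM over stages II and III, and 1142 to 1301 CPM at stage IV. The sum of 13 basophil and mast cell genes was 2601 to 4177 CPM under IL-33. In steady state it was 1504 to 3820 CPM over stages I and II, overlapping the IL-33 values, and 142 to 1135 CPM over stages III and IV. The mast cell genes Mcpt4, Tpsb2 and Tpsab1 were at 0 in all 8 groups, and Cma1 was at 0 at steady-state stages I to III alone. The part of these markers in any difference below was not tested. In bulk libraries, fewer cells of a type and less RNA per cell cannot be told apart.

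Levels are CPM scaled with TMM factors (trimmed mean of M values). Levels of different genes are compared only per kilobase of exon. By that measure, averaged over the 24 libraries, the R-SNARE Vamp8 stood highest at 197 CPM per kb. Rab44 followed at 185, Rab7 at 156, Rab11a at 146 and Stxbp2 at 123 CPM per kb. Among the syntaxins Stx3 was far above the rest at 87.9 CPM per kb, against 27 for Stx7, the next. Snap23 stood at 77.1 CPM per kb and its relative Snap29 at 6.88. At the low end were Rab27b at 0.407, Sytl3 at 0.433 and Rab3a at 2.36 CPM per kb. Vamp7, which acts in fusion of late endosomes and lysosomes, lies in GENCODE M21 on a scaffold outside the assembled chromosomes. The 8 symbols of the files that this annotation places on scaffolds had 0 counts in every library, so its reading of 0 is not a measure of its expression.

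**Figure D1:**
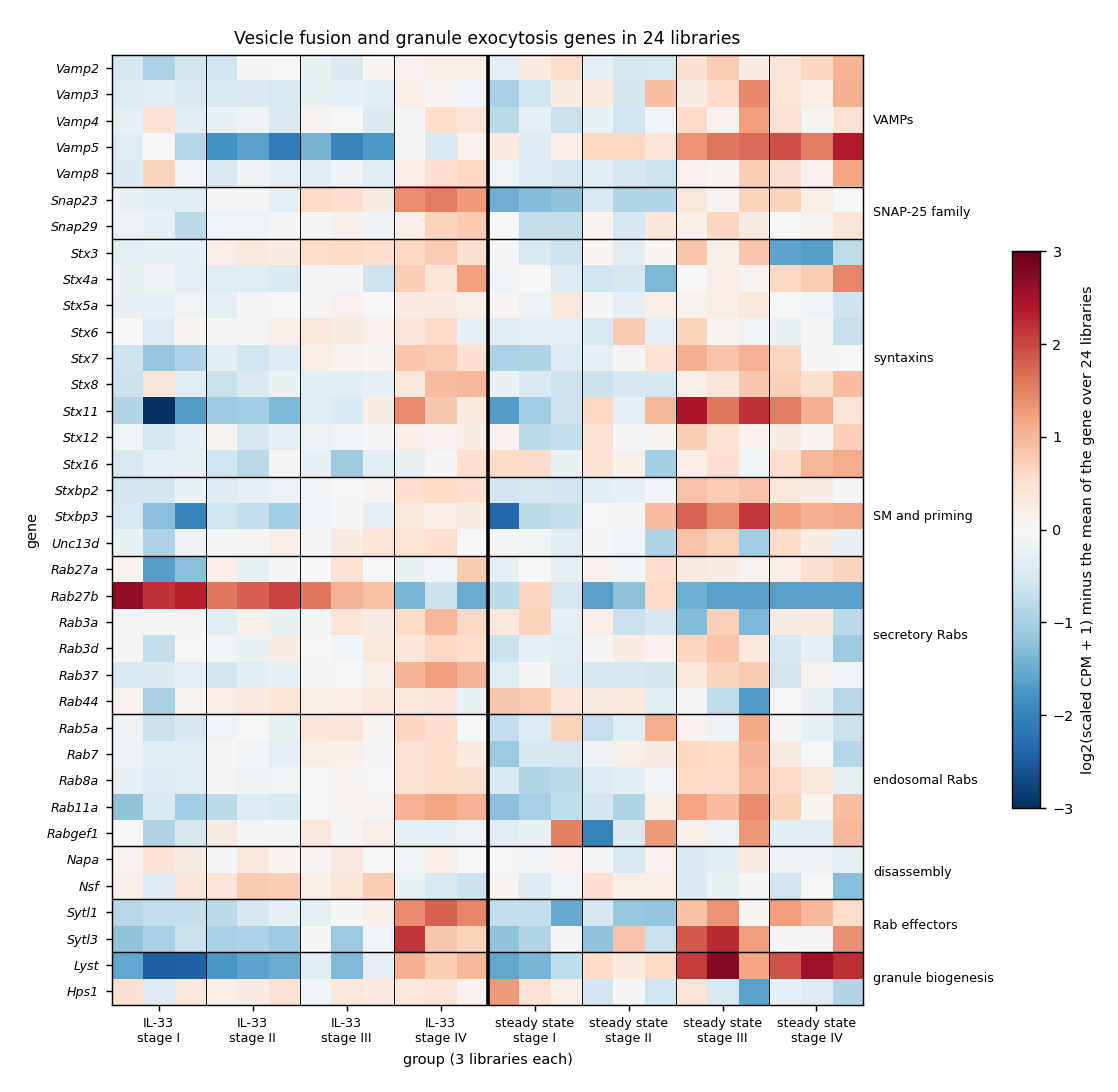
Level of each of the 36 members with counts in the 24 libraries, as log2(CPM + 1) minus the gene's own mean over the libraries, grouped by role. Columns run from stage I to IV, IL-33 libraries on the left and steady-state libraries on the right. The highest group mean sits at stage IV for 30 members under IL-33, and at stage III for 21 members in steady state. These counts rank means without a test, and the share of all genes with such a peak was not computed.

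In steady state the genes came up with the step to stage III. A gene is said to have risen or fallen where edgeR's quasi-likelihood test gave a Benjamini-Hochberg adjusted p under 0.05 over the 12743 genes tested. At steady-state stage III against II, 18 of the 36 members rose and 1 fell, which is 50% and 2.78%, while 34.6% of all genes were called, 17.2% higher and 17.4% lower. The median member change there was log2 0.70, against 0 over all genes. At stage IV against III 1 member rose and 6 fell, where 3.55% of all genes rose and 5.67% fell (9.23% together). At stage II against I 4 rose and 0 fell, against 3.58% and 1.29% of all genes (4.87% together). Over the whole course, stage IV against I, 16 rose and 4 fell, against 21.1% and 22.7% of all genes (43.8% together). The 16 were Lyst, Rab11a, Rab8a, Snap23, Stx4a, Stx7, Stx8, Stx11, Stx12, Stxbp2, Stxbp3, Sytl1, Vamp3, Vamp4, Vamp5 and Vamp8, with changes between log2 0.72 for Stxbp2 and 3.50 for Lyst. The 4 that fell were Stx3 (log2 -0.92, edgeR adjusted p = 0.00258), Rab44, Hps1 and Rab27b.

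Of the 19 calls at steady-state stage III, 9 held under every alternative processing and every omission of 1 library: Lyst, Rab11a, Rab37, Rab8a, Snap23, Stx8, Stxbp2, Stxbp3 and Sytl1. Of the 7 calls at stage IV against III only that of Stx3 did, and of the 4 at stage II against I none did. Of the 20 calls of stage IV against I, 13 did. Scaling by library totals instead of TMM put the median of all genes at log2 -0.33 at stage III against II, with 11 members higher and 3 lower. That scaling gave 12 higher and 6 lower at stage IV against I, where it ended the calls of Vamp3, Vamp4, Stx12 and Stxbp2, and 1 higher and 2 lower at stage IV against III.

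Under IL-33 most calls came with the step to stage IV. At IL-33 stage II against I 0 members rose and 1 fell, where 0.0942% of all genes were called, 0.0785% higher and 0.0157% lower. At stage III against II no member was called by edgeR, where 0.0863% of all genes were; 6 members had an unadjusted p under 0.05, and DESeq2 called 0. A fit of those groups alone, which called 678 of all genes there, called 5 members, all higher at stage III. At stage IV against III 11 members rose and 2 fell, which is 30.6% and 5.56%, where 29.1% of all genes were called, 13.1% higher and 16% lower. Over stage IV against I 19 rose and 1 fell, against 21.2% and 22.9% of all genes (44.1% together), and the median member change was log2 0.84 against -0.03 over all genes. The 19 were Lyst, Rab11a, Rab8a, Snap23, Stx4a, Stx7, Stx8, Stx11, Stxbp2, Stxbp3 and Sytl1, which rose in steady state as well, with Rab37, Stx3, Rab7, Rab3d, Rab27a, Vamp2, Snap29 and Sytl3. Rab27b was the 1 that fell. Leaving out the thinly counted Sytl3, the rises lay between log2 0.74 for Rab7 and 3.13 for Lyst.

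Of the 13 calls at IL-33 stage IV against III, 7 held under every alternative and every single omission: Lyst, Rab11a, Rab37, Snap23, Stx8, Sytl1 and Vamp5. For stage IV against I, 14 of 20 did. Scaling by library totals gave 14 higher and 3 lower for stage IV against I, and ended the calls of Vamp2, Snap29, Rab27a, Rab3d and Rab7 there. The summed level of 10 proliferation genes changed at the same steps. It was 291 to 428 CPM at IL-33 stage IV, against 3472 to 4011 CPM at IL-33 stage III. In steady state it was 461 to 639 CPM at stage III, against 3105 to 4501 CPM at stage II, and its part in the members' changes was not tested.

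**Figure D2:**
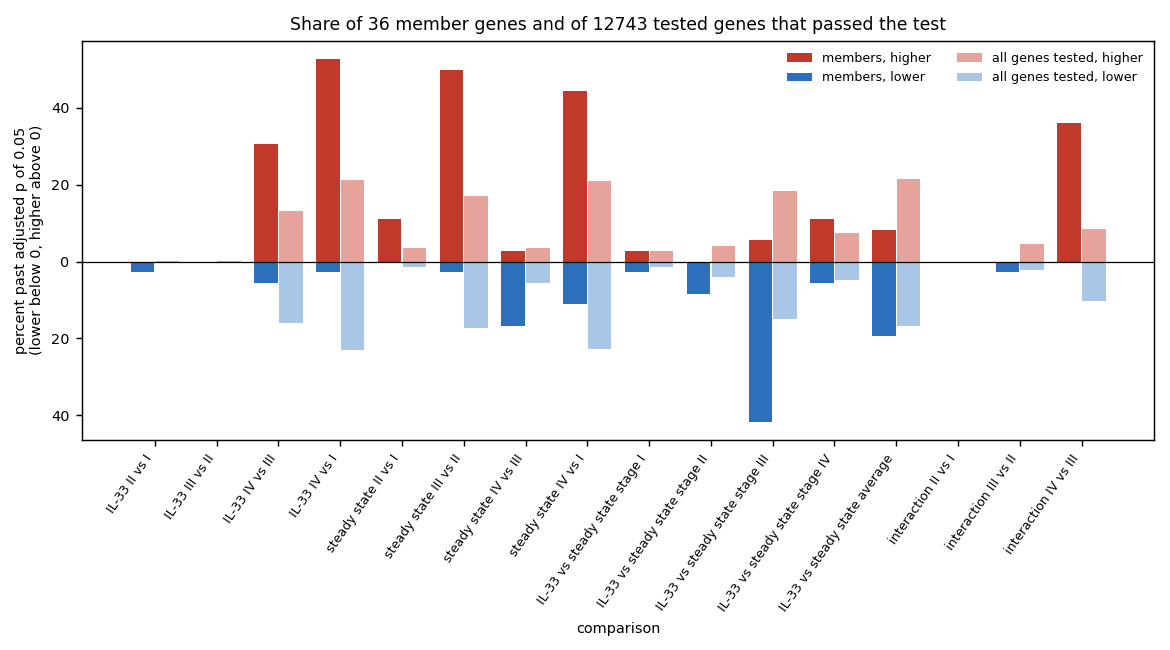
Share of the 36 tested members (dark bars) and of all 12743 tested genes (light bars) that passed edgeR adjusted p under 0.05 in each comparison, in percent. Higher is drawn above 0 in red and lower below 0 in blue. The members' share of rises is 50% at steady-state stage III against II, where that of all genes is 17.2%.

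The difference between conditions in a step was tested directly, as an interaction. For stage IV against III, 13 of 36 members had a more positive step under IL-33 and 0 a more negative one, where 8.44% of all genes had a more positive and 10.3% a more negative step (18.7% together). The median member difference was log2 0.80, and that over all genes lay close to 0. For stage III against II only Stxbp2 was called, with a smaller step under IL-33, where 6.61% of all genes were called, 4.49% with a larger step and 2.12% with a smaller one. That count was 5 with the replicate block, 4 without the third steady-state pool, 3 by DESeq2, 2 with the unassigned-read covariate, and 0 under library-total scaling, no low-count filter or a fit of those groups alone. For stage II against I no member was called by edgeR, where 0% of all genes were; 6 members had an unadjusted p under 0.05 and DESeq2 called 1. Of the 13 differences at stage IV against III, 6 held under every alternative and omission: Rab11a, Rab37, Rab3d, Stx3, Stx7 and Stxbp2. Scaling by library totals, which put the median of all genes at log2 -0.395, kept 6 of the 13.

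**Figure D3:**
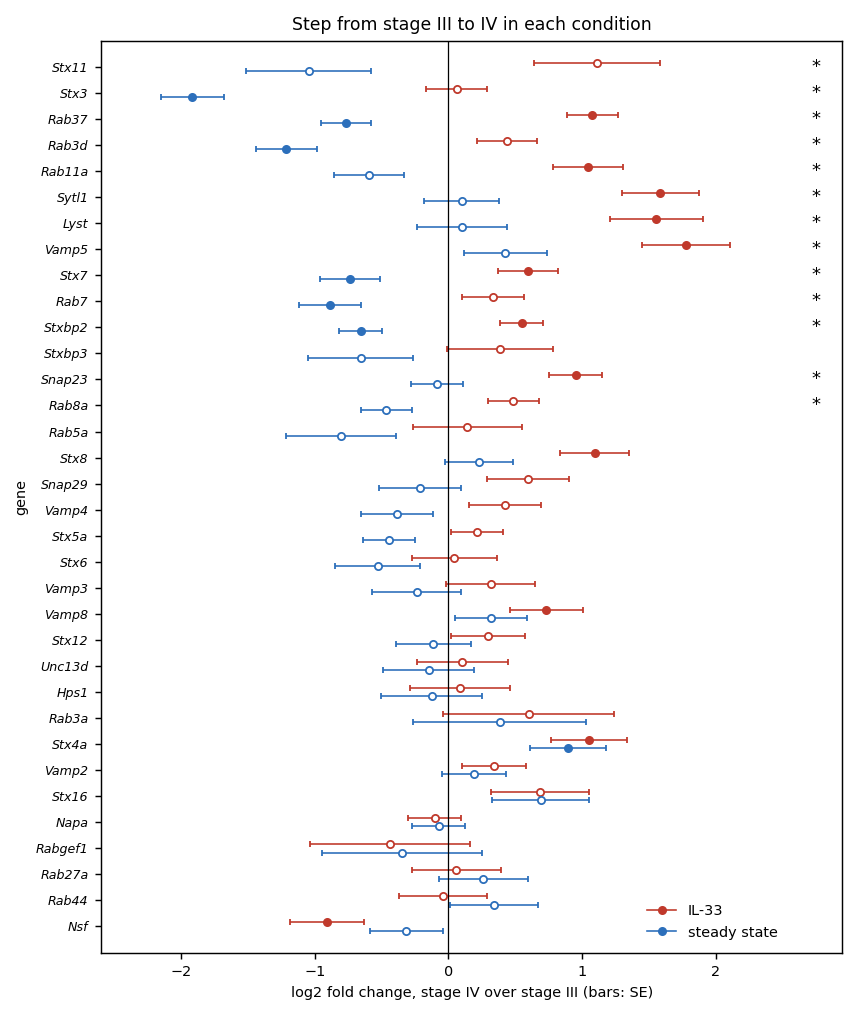
Log2 change of each member at stage IV against III, under IL-33 and in steady state, for 34 members (Rab27b and Sytl3, with very low counts, are left out). Bars are the SE. Filled points passed edgeR adjusted p under 0.05, and asterisks mark the members whose step differed between conditions. Stx3 lies near 0 under IL-33 and at -1.92 in steady state.

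Set stage by stage against steady state, the genes were lower under IL-33 at stage III and mixed at stage IV. At stage III 2 members were higher and 15 lower under IL-33, where 33.4% of all genes were called, 18.5% higher and 14.9% lower. The median member difference was log2 -0.58, against 0 over all genes. At stage IV 4 were higher and 2 lower, where 12.2% of all genes were called, 7.48% higher and 4.68% lower. At stage I 1 was higher and 1 lower (4.06% of all genes called, 2.71% higher and 1.36% lower), and at stage II 0 were higher and 3 lower (8.03% of all genes, 4.06% higher and 3.97% lower). Averaged over the 4 stages 3 were higher and 7 lower (38.1% of all genes, 21.4% higher and 16.7% lower). These comparisons share libraries with the steps above and with the interactions.

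Of the 17 calls at stage III, 8 held under every alternative and omission: Lyst, Rab11a, Rab27b, Stx11, Stx7, Stxbp2, Stxbp3 and Vamp5. At stage IV those of Rab37 and Stx3 did, and at stage II those of Lyst and Vamp5. At stage I neither of the 2 did, and of the 10 averaged calls only that of Vamp5. Scaling by library totals gave 4 higher and 8 lower at stage III. The share of unassigned reads, used as a covariate, ended 9 of the 10 averaged calls, 4 of 6 at stage IV and both at stage I, and this share cannot be told apart from the condition.

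**Figure D4:**
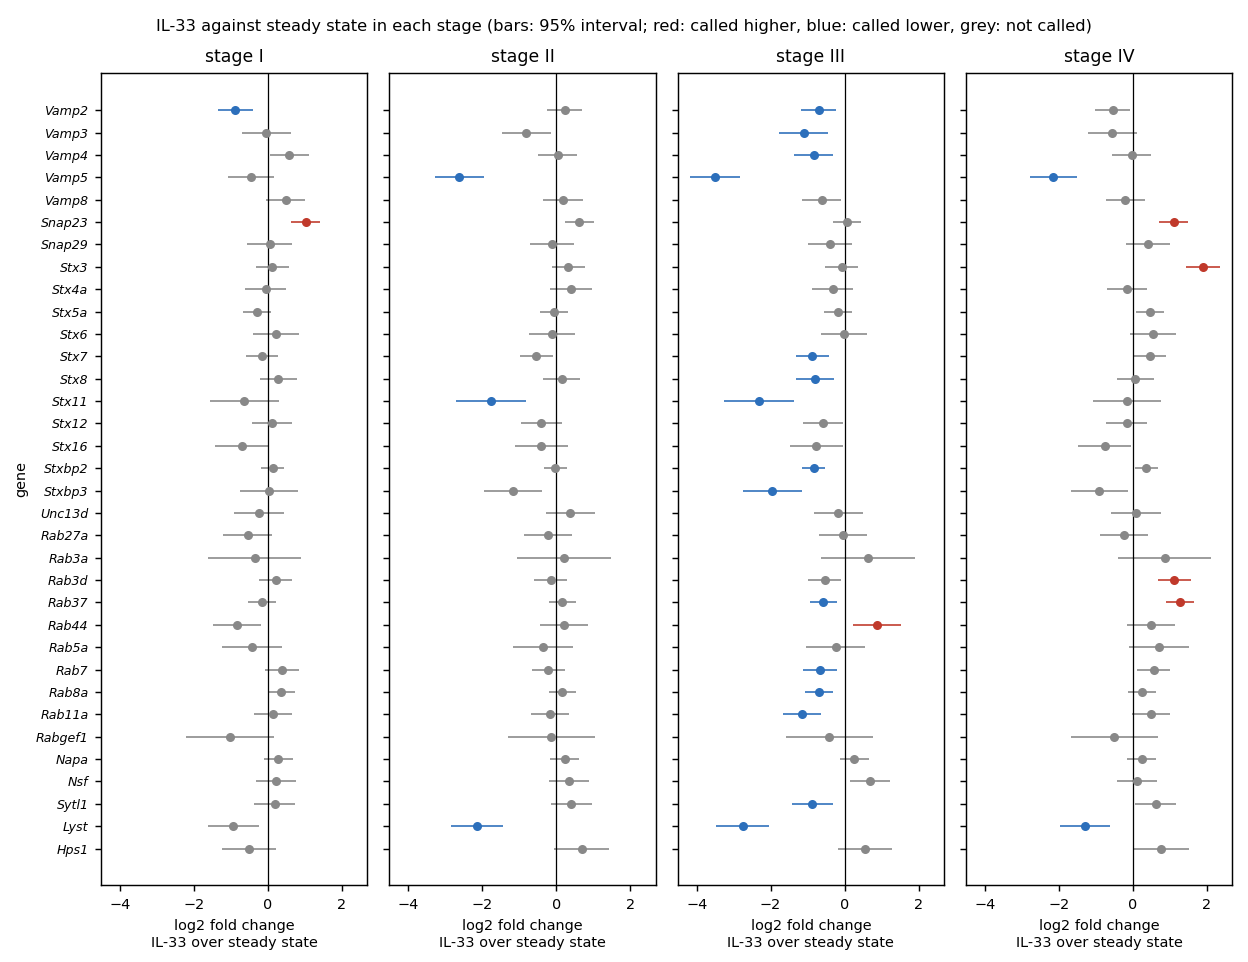
Log2 difference of IL-33 over steady state for 34 members in each of the 4 stages, with the 95% interval (Rab27b and Sytl3 left out). Red points were called higher, blue points lower and grey points not at edgeR adjusted p under 0.05. Most called members lie left of 0 at stage III, and Vamp5 lies lowest there at -3.51.

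The R-SNAREs of the VAMP family were led by Vamp8 (chromosome 6, 72385223 to 72390703, minus strand), the VAMP of mast cell and platelet granule release and of late endosomes. Vamp8 under IL-33 held 316, 697 and 399 CPM at stage I, 307, 387 and 356 at stage II, 340.3, 382 and 339 at stage III, and 491, 611 and 664 at stage IV. Vamp8 in steady state held 392.4, 322 and 299 CPM at stage I, 345, 304 and 278 at stage II, 472, 447.5 and 715 at stage III, and 595, 469 and 976 at stage IV. The second IL-33 library was the highest of its group at stage I. In steady state the stage III libraries lay above those of stage II. Vamp8 at steady-state stage III was 1.76-fold higher (log2 0.82 ± 0.27 SE, edgeR adjusted p = 0.0242) than at stage II. At IL-33 stage IV it was 1.66-fold higher (log2 0.73 ± 0.27 SE, edgeR adjusted p = 0.0466) than at stage III. The Vamp8 call for steady-state stage III over II ended without any 1 of steady-state stage II replicates 2 and 3 and steady-state stage III replicate 3 (log2 0.58 to 0.81, edgeR adjusted p 0.0615 to 0.131), and under library-total scaling, loss of the third steady-state pool and a fit of those groups alone. The Vamp8 call for IL-33 stage IV over III ended without any 1 of IL-33 stage III replicates 1, 2 and 3 and IL-33 stage IV replicates 2 and 3 (log2 0.64 to 0.79, edgeR adjusted p 0.0873 to 0.147), and under library-total scaling, no low-count filter and the unassigned-read covariate. Over the steady-state course Vamp8 rose (stage IV over I, log2 1.01, edgeR adjusted p = 0.00488), with the highest stage IV value in the third pool. The Vamp8 call for steady-state stage IV over I ended without steady-state stage IV replicate 3 (log2 0.66, edgeR adjusted p = 0.0582), and under loss of the third steady-state pool. No difference between conditions was called for Vamp8 at any stage (log2 -0.62 at stage III, edgeR adjusted p = 0.0821).

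Vamp5 (chromosome 6, 72368794 to 72380468, minus strand), a VAMP first described in muscle, lies next to Vamp8 with 4754 bases between the genes, and had the largest difference between conditions of any VAMP. Vamp5 under IL-33 held 12.6, 16.8 and 8.71 CPM at stage I, 4.09, 4.69 and 3.14 at stage II, 5.65, 3.55 and 4.33 at stage III, and 16.2, 12 and 18.2 at stage IV. Vamp5 in steady state held 20.7, 12.5 and 19.4 CPM at stage I, 26, 26.3 and 21.6 at stage II, 44.2, 52.9 and 56.7 at stage III, and 66.3, 50.1 and 90.2 at stage IV. At stages II, III and IV all 3 IL-33 libraries lay below all 3 steady-state libraries, while at stage I they overlapped. Vamp5 under IL-33 was 11.4-fold lower (log2 -3.51 ± 0.35 SE, edgeR adjusted p = 1.89e-07) than in steady state at stage III. It was 6.19-fold lower (log2 -2.63 ± 0.34 SE, edgeR adjusted p = 4.35e-05) at stage II and 4.45-fold lower (log2 -2.15 ± 0.32 SE, edgeR adjusted p = 9.12e-05) at stage IV. The Vamp5 call for IL-33 over steady state at stage IV ended under the unassigned-read covariate. Within the IL-33 course Vamp5 was low at stages II and III and stood higher at stage IV, where it was 3.43-fold higher (log2 1.78 ± 0.33 SE, edgeR adjusted p = 0.000257) than at stage III. Its stage II value under IL-33 was 3.19-fold lower (log2 -1.67 ± 0.33 SE, edgeR adjusted p = 0.0426) than at stage I. The Vamp5 call for IL-33 stage II over I ended without any 1 of the 6 libraries compared (log2 -1.89 to -1.43, edgeR adjusted p 0.0712 to 0.519), and under no low-count filter, the unassigned-read covariate and a fit of those groups alone. DESeq2 gave no adjusted p for it. In steady state Vamp5 rose at stage III over II (log2 1.06, edgeR adjusted p = 0.0122) and over the course (log2 1.97, edgeR adjusted p = 3.6e-05). The Vamp5 call for steady-state stage III over II ended under library-total scaling, loss of the third steady-state pool and a fit of those groups alone. The difference of the stage IV step between conditions was log2 1.35 ± 0.45 (SE, edgeR adjusted p = 0.0369). The Vamp5 call for the step difference IV over III ended without any 1 of IL-33 stage III replicates 2 and 3, IL-33 stage IV replicates 1 and 3, steady-state stage III replicates 2 and 3 and steady-state stage IV replicates 1 and 2 (log2 1.10 to 1.33, edgeR adjusted p 0.0629 to 0.135), and under library-total scaling and no low-count filter.

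The start regions of this neighbouring pair are shown because the genes sit side by side, and Vamp5 was lower under IL-33 at 3 stages while Vamp8 was not called between conditions. Each runs 250 bases before to 50 after the RefSeq start on GRCm38.p6, 5′ to 3′ on the gene's strand, at chr6:72380419-72380718 on the minus strand for Vamp5 and chr6:72390618-72390917 on the minus strand for Vamp8. GC content was 67.3% for Vamp5 and 46.7% for Vamp8, and neither window held a match to the motifs searched, CACGTG and GATAA on both strands.
Vamp5: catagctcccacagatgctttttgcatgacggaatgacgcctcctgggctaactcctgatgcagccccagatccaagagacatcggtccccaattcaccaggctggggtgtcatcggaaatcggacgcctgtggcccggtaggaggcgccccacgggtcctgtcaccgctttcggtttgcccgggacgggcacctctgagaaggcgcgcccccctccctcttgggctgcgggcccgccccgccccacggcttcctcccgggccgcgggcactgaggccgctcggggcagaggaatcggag
Vamp8: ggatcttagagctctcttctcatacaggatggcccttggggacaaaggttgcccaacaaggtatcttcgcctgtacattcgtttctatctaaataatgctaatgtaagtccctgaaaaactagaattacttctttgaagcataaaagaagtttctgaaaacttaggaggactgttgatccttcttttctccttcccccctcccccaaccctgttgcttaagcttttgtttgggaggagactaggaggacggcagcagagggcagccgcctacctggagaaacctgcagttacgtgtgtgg

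The other VAMPs with counts belong to synaptic vesicles, endosomes and the Golgi. Vamp2, the synaptic vesicle VAMP, ranged over 38.5 to 151 CPM. Vamp2 at steady-state stage III was 1.91-fold higher (log2 0.94 ± 0.24 SE, edgeR adjusted p = 0.00478) than at stage II. Between conditions it was lower under IL-33 at stage I (log2 -0.88, edgeR adjusted p = 0.0423) and at stage III (log2 -0.70, edgeR adjusted p = 0.0303). The Vamp2 call for IL-33 over steady state at stage I ended without any 1 of IL-33 stage I replicates 2 and 3 and steady-state stage I replicates 2 and 3 (log2 -0.92 to -0.69, edgeR adjusted p 0.0904 to 0.24), and under no low-count filter, the unassigned-read covariate, loss of the third steady-state pool and a fit of those groups alone. The Vamp2 call for IL-33 over steady state at stage III ended without any 1 of IL-33 stage III replicates 1 and 2 and steady-state stage III replicates 1 and 2 (log2 -0.70 to -0.56, edgeR adjusted p 0.0579 to 0.142), and under library-total scaling, no low-count filter, the unassigned-read covariate and a fit of those groups alone. The Vamp2 call for steady-state stage III over II ended under library-total scaling and a fit of those groups alone.

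Vamp3, the VAMP of recycling endosomes (chromosome 4, 151047300 to 151057963, minus strand), was highest in the third steady-state pool. Vamp3 under IL-33 held 75.2, 79.3 and 72.6 CPM at stage I, 72.1, 73.2 and 71.7 at stage II, 85.6, 84 and 80.1 at stage III, and 113, 106 and 92.4 at stage IV. Vamp3 in steady state held 50.7, 65.5 and 117 CPM at stage I, 124, 68.4 and 188 at stage II, 116, 151 and 272 at stage III, and 132, 116 and 209 at stage IV. In every stage the third library topped its steady-state group, while the IL-33 libraries lay close together. Vamp3 at stage III was 2.16-fold lower (log2 -1.11 ± 0.34 SE, edgeR adjusted p = 0.0145) under IL-33 than in steady state, and it rose over the steady-state course (log2 0.97, edgeR adjusted p = 0.0239) although those groups overlapped. The Vamp3 call for IL-33 over steady state at stage III ended without steady-state stage III replicate 3 (log2 -0.67, edgeR adjusted p = 0.137), and under the unassigned-read covariate. The Vamp3 call for steady-state stage IV over I ended without any 1 of steady-state stage I replicates 1 and 2 and steady-state stage IV replicate 3 (log2 0.67 to 0.85, edgeR adjusted p 0.0899 to 0.143), and under library-total scaling, the unassigned-read covariate and a fit of those groups alone.

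Vamp4, a VAMP of the trans-Golgi network (chromosome 1, 162570515 to 162599084, plus strand), also had its highest value in that pool. Vamp4 under IL-33 held 95.9, 162 and 93.8 CPM at stage I, 103, 105 and 86.8 at stage II, 124, 118 and 86.7 at stage III, and 119, 168 and 153 at stage IV. Vamp4 in steady state held 66.4, 96.3 and 73.9 CPM at stage I, 102, 77.5 and 109 at stage II, 176, 128 and 282 at stage III, and 162, 125 and 163 at stage IV. Its IL-33 and steady-state libraries overlapped at stages I, II and IV and were apart at stage III. Vamp4 at steady-state stage III was 2.04-fold higher (log2 1.03 ± 0.27 SE, edgeR adjusted p = 0.00533) than at stage II, and at stage III it was 1.78-fold lower (log2 -0.83 ± 0.27 SE, edgeR adjusted p = 0.0205) under IL-33 than in steady state. The Vamp4 call for steady-state stage III over II ended without steady-state stage III replicate 3 (log2 0.67, edgeR adjusted p = 0.0584), and under loss of the third steady-state pool and a fit of those groups alone. The Vamp4 call for IL-33 over steady state at stage III ended without any 1 of IL-33 stage III replicate 3 and steady-state stage III replicate 3 (log2 -0.68 to -0.47, edgeR adjusted p 0.103 to 0.19), and under library-total scaling, loss of the third steady-state pool and a fit of those groups alone.

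Snap23 (chromosome 2, 120567671 to 120601255, plus strand), the SNAP-25 family member that most non-neuronal cells use at the plasma membrane, rose in both conditions and was higher under IL-33. Snap23 under IL-33 held 243, 224 and 223 CPM at stage I, 277, 273 and 240.1 at stage II, 426, 403 and 341 at stage III, and 754, 822 and 691 at stage IV. Snap23 in steady state held 105, 115 and 122 CPM at stage I, 206, 154 and 154 at stage II, 359, 305 and 454.95 at stage III, and 453.6, 319 and 282 at stage IV. At stages I, II and IV every IL-33 library lay above every steady-state library, and at stage III the groups overlapped. The stage II difference was not called (log2 0.62 ± 0.20 SE, edgeR adjusted p = 0.0542). Snap23 at IL-33 stage IV was 1.94-fold higher (log2 0.95 ± 0.20 SE, edgeR adjusted p = 0.000842) than at stage III. Steady-state Snap23 was 2.18-fold higher (log2 1.12 ± 0.20 SE, edgeR adjusted p = 0.00016) at stage III than at stage II, and at stage IV over III its change was not called (log2 -0.08, edgeR adjusted p = 0.85). Between conditions Snap23 was 2.02-fold higher (log2 1.01 ± 0.20 SE, edgeR adjusted p = 0.00607) under IL-33 at stage I and 2.15-fold higher (log2 1.10 ± 0.20 SE, edgeR adjusted p = 0.000601) at stage IV. The step to stage IV differed between conditions by log2 1.04 ± 0.28 (SE, edgeR adjusted p = 0.011). The Snap23 call for IL-33 over steady state at stage I ended under the unassigned-read covariate. The Snap23 call for IL-33 over steady state at stage IV ended under the unassigned-read covariate. The Snap23 call for the step difference IV over III ended under library-total scaling and loss of the third steady-state pool. Snap29, a SNAP-25 relative of autophagosome and endosome fusion, ranged over 12.5 to 39.6 CPM and rose over the IL-33 course (stage IV over I, log2 1.01, edgeR adjusted p = 0.0105). In steady state its change was log2 0.64 ± 0.31 (SE, edgeR adjusted p = 0.0971). The Snap29 call for IL-33 stage IV over I ended without any 1 of IL-33 stage I replicate 3 and IL-33 stage IV replicate 3 (log2 0.83 to 0.88, edgeR adjusted p 0.0501 to 0.0695), and under library-total scaling.

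**Figure D5:**
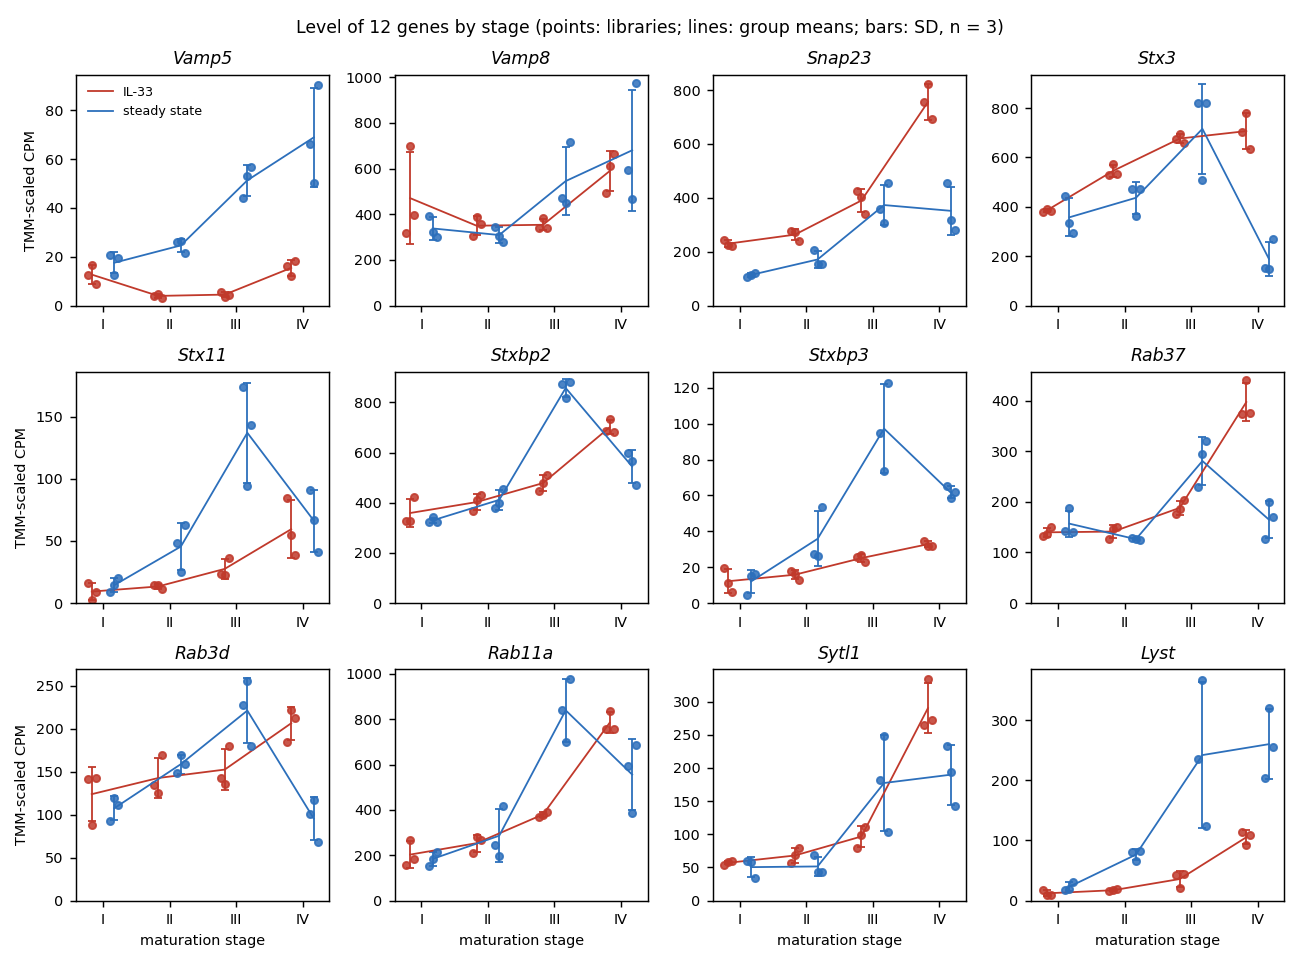
CPM of 12 members in each library, by stage from I to IV, with a line through the group means and bars of 1 SD. IL-33 libraries are drawn left of the steady-state libraries of the same stage. Stx3 at stage IV lies at 635 to 781 CPM under IL-33 and at 146 to 269 CPM in steady state.

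Stx3 (chromosome 19, 11775118 to 11819403, minus strand), a plasma membrane and granule syntaxin of mast cells and neutrophils, had the largest difference between conditions at stage IV of the syntaxins. Stx3 under IL-33 held 381, 392.03 and 384 CPM at stage I, 529, 575 and 535 at stage II, 677, 695 and 658 at stage III, and 704, 781 and 635 at stage IV. Stx3 in steady state held 444.1, 334 and 295 CPM at stage I, 474, 362 and 474 at stage II, 821, 507 and 820.1 at stage III, and 153, 146 and 269 at stage IV. The conditions overlapped at stages I and III, and at stage II the IL-33 libraries lay above the steady-state ones by a difference that was not called (log2 0.32 ± 0.23 SE, edgeR adjusted p = 0.426). At stage IV the lowest IL-33 library, at 635 CPM, lay far above the highest steady-state one, at 269 CPM. Stx3 at steady-state stage IV was 3.78-fold lower (log2 -1.92 ± 0.24 SE, edgeR adjusted p = 1.17e-05) than at stage III. At IL-33 stage IV it differed from stage III by log2 0.06 ± 0.23 (SE, edgeR adjusted p = 0.868). Stx3 was 3.73-fold higher (log2 1.90 ± 0.24 SE, edgeR adjusted p = 7.85e-06) under IL-33 than in steady state at stage IV, and the 2 steps differed by log2 1.98 ± 0.33 (SE, edgeR adjusted p = 0.000179). These 3 called differences held in every alternative and omission. Before that fall Stx3 had risen in steady state (stage III over II, log2 0.71, edgeR adjusted p = 0.019), and it rose over the IL-33 course (stage IV over I, log2 0.87, edgeR adjusted p = 0.00344). The Stx3 call for steady-state stage III over II ended without any 1 of steady-state stage II replicate 2 and steady-state stage III replicates 1 and 3 (log2 0.60 to 0.61, edgeR adjusted p 0.0679 to 0.0869), and under library-total scaling and a fit of those groups alone. The granule cargo sum fell at the same steady-state step, with 399 to 1248 CPM at stage IV, against 13608 to 22652 CPM at stage III. Its part in the fall of Stx3 was not tested.

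Stx4a (chromosome 7, 127824294 to 127849019, plus strand), which encodes syntaxin 4 of the plasma membrane, rose at stage IV in both conditions. Stx4a under IL-33 held 32.2, 34.3 and 30.8 CPM at stage I, 29.4, 29.2 and 27.4 at stage II, 37.3, 37.4 and 24.5 at stage III, and 63.8, 51.1 and 91.1 at stage IV. Stx4a in steady state held 34.5, 38.7 and 28.2 CPM at stage I, 24.8, 26.3 and 14.4 at stage II, 38.6, 43.9 and 41 at stage III, and 58.9, 64.8 and 107 at stage IV. The stage IV libraries were the highest of each course. The conditions overlapped at stages I and IV, and no difference between them was called at any stage (log2 -0.32 to 0.39). Stx4a at IL-33 stage IV was 2.08-fold higher (log2 1.05 ± 0.28 SE, edgeR adjusted p = 0.00718) than at stage III. Steady-state Stx4a was 1.86-fold higher (log2 0.90 ± 0.28 SE, edgeR adjusted p = 0.0487) at stage IV than at stage III and 1.89-fold higher (log2 0.92 ± 0.29 SE, edgeR adjusted p = 0.0164) at stage III than at stage II. The Stx4a call for IL-33 stage IV over III ended without any 1 of IL-33 stage III replicate 3 and IL-33 stage IV replicate 3 (log2 0.79 to 0.88, edgeR adjusted p 0.0533 to 0.0676). The Stx4a call for steady-state stage IV over III ended without any 1 of steady-state stage III replicates 1, 2 and 3 and steady-state stage IV replicate 3 (log2 0.59 to 0.94, edgeR adjusted p 0.0759 to 0.258), and under no low-count filter, the unassigned-read covariate, loss of the third steady-state pool and a fit of those groups alone. The Stx4a call for steady-state stage III over II ended without steady-state stage II replicate 3 (log2 0.69, edgeR adjusted p = 0.0827), and under library-total scaling, loss of the third steady-state pool and a fit of those groups alone.

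Stx11 (chromosome 10, 12938209 to 12964298, minus strand), a lipid-anchored syntaxin that cytotoxic lymphocytes need for granule release, was lower under IL-33 at stages II and III. Its group mean was highest at stage III in steady state and at stage IV under IL-33. Stx11 under IL-33 held 16.2, 2.53 and 8.99 CPM at stage I, 14.1, 14.6 and 11.4 at stage II, 23.7, 22.4 and 36.4 at stage III, and 84.8, 55 and 38.6 at stage IV. Stx11 in steady state held 9.03, 14.5 and 19.8 CPM at stage I, 48.3, 25.2 and 62.9 at stage II, 174, 94.2 and 143 at stage III, and 91.2, 66.5 and 41.1 at stage IV. All IL-33 libraries lay below all steady-state libraries at stages II and III, and the groups overlapped at I and IV. Stx11 was 4.98-fold lower (log2 -2.32 ± 0.49 SE, edgeR adjusted p = 0.000862) under IL-33 than in steady state at stage III and 3.4-fold lower (log2 -1.76 ± 0.48 SE, edgeR adjusted p = 0.0253) at stage II. The Stx11 call for IL-33 over steady state at stage II ended without any 1 of IL-33 stage II replicates 1, 2 and 3 and steady-state stage II replicate 3 (log2 -1.82 to -1.45, edgeR adjusted p 0.0758 to 0.107), and under the unassigned-read covariate and loss of the third steady-state pool. Steady-state Stx11 was 3.01-fold higher (log2 1.59 ± 0.48 SE, edgeR adjusted p = 0.0125) at stage III than at stage II and 3.14-fold higher (log2 1.65 ± 0.48 SE, edgeR adjusted p = 0.0487) at stage II than at stage I. The Stx11 call for steady-state stage III over II ended without steady-state stage II replicate 2 (log2 1.30, edgeR adjusted p = 0.0658). The Stx11 call for steady-state stage II over I ended without any 1 of steady-state stage I replicates 1 and 2 and steady-state stage II replicates 1 and 3 (log2 1.34 to 1.65, edgeR adjusted p 0.0825 to 0.197), and under library-total scaling, the unassigned-read covariate, loss of the third steady-state pool and a fit of those groups alone. Over the whole course it rose in both conditions, by log2 2.68 ± 0.50 (SE, edgeR adjusted p = 0.000135) under IL-33 and by log2 2.19 ± 0.49 (SE, edgeR adjusted p = 0.000917) in steady state. The stage IV step differed between conditions by log2 2.16 ± 0.66 (SE, edgeR adjusted p = 0.0255). The Stx11 call for the step difference IV over III ended without any 1 of IL-33 stage III replicates 1 and 2, IL-33 stage IV replicate 1, steady-state stage III replicate 1 and steady-state stage IV replicates 2 and 3 (log2 1.81 to 2.09, edgeR adjusted p 0.0591 to 0.0775), and under library-total scaling and loss of the third steady-state pool.

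Stx7 (chromosome 10, 24149302 to 24190222, plus strand) and Stx8 belong to the late endosomal Q-SNARE set that pairs with Vamp8. Stx7 under IL-33 held 70.2, 48.5 and 57.2 CPM at stage I, 85.7, 71.7 and 82.9 at stage II, 125, 118 and 113 at stage III, and 197, 185 and 156 at stage IV. Stx7 in steady state held 56.1, 58.3 and 82.1 CPM at stage I, 90.7, 112 and 147 at stage II, 231, 197 and 226 at stage III, and 173, 112 and 108 at stage IV. Under IL-33 the stages did not overlap and followed the order I to IV, while in steady state stage III stood above both neighbours. Stx7 at stage III was 1.84-fold lower (log2 -0.88 ± 0.22 SE, edgeR adjusted p = 0.00443) under IL-33 than in steady state. The IL-33 course gave log2 1.61 ± 0.23 (SE, edgeR adjusted p = 5.22e-06) for stage IV over I, and the steady-state course log2 1.00 ± 0.23 (SE, edgeR adjusted p = 0.00108). The stage IV step differed between conditions by log2 1.33 ± 0.32 (SE, edgeR adjusted p = 0.00455), from a step of log2 0.59 ± 0.22 (SE, edgeR adjusted p = 0.0491) under IL-33 and of log2 -0.74 ± 0.22 (SE, edgeR adjusted p = 0.0401) in steady state. In steady state Stx7 also rose at stage II over I (log2 0.83, edgeR adjusted p = 0.035) and at stage III over II (log2 0.90, edgeR adjusted p = 0.00351). The Stx7 call for IL-33 stage IV over III ended without any 1 of the 6 libraries compared (log2 0.52 to 0.68, edgeR adjusted p 0.0566 to 0.145), and under library-total scaling and no low-count filter. The Stx7 call for steady-state stage IV over III ended without any 1 of steady-state stage III replicates 1 and 3 and steady-state stage IV replicates 2 and 3 (log2 -0.71 to -0.52, edgeR adjusted p 0.0896 to 0.245), and under RLE factors, library-total scaling, no low-count filter, the unassigned-read covariate, loss of the third steady-state pool and a fit of those groups alone. The Stx7 call for steady-state stage II over I ended without any 1 of steady-state stage I replicates 1 and 2 and steady-state stage II replicates 2 and 3 (log2 0.63 to 0.86, edgeR adjusted p 0.0503 to 0.17), and under library-total scaling, no low-count filter, loss of the third steady-state pool and a fit of those groups alone. The Stx7 call for steady-state stage III over II ended under library-total scaling and a fit of those groups alone.

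Stx8 (chromosome 11, 67966193 to 68207148, plus strand) rose at IL-33 stage IV over III and at steady-state stage III over II. Stx8 under IL-33 held 43.3, 89.7 and 53.7 CPM at stage I, 43.2, 50.8 and 59.3 at stage II, 55.1, 54.6 and 57.3 at stage III, and 87.3, 133 and 137 at stage IV. Stx8 in steady state held 59.8, 50.2 and 44.6 CPM at stage I, 43.8, 47.2 and 47.7 at stage II, 78.2, 90.8 and 122 at stage III, and 113, 97 and 131 at stage IV. Stage IV under IL-33 lay above stage III in every library, as did steady-state stage III above II. Stx8 at IL-33 stage IV was 2.14-fold higher (log2 1.10 ± 0.26 SE, edgeR adjusted p = 0.00242) than at stage III, and at steady-state stage III it was 2.1-fold higher (log2 1.07 ± 0.26 SE, edgeR adjusted p = 0.00265) than at stage II. At stage III it was 1.74-fold lower (log2 -0.80 ± 0.26 SE, edgeR adjusted p = 0.0187) under IL-33 than in steady state. The Stx8 call for IL-33 over steady state at stage III ended without any 1 of IL-33 stage III replicates 1 and 2 and steady-state stage III replicate 3 (log2 -0.79 to -0.60, edgeR adjusted p 0.0571 to 0.103), and under library-total scaling, the unassigned-read covariate and loss of the third steady-state pool. The remaining syntaxins act along the Golgi and endosomes. Stx12 ranged over 21 to 61.8 CPM and rose over the steady-state course (log2 0.77, edgeR adjusted p = 0.0286), though those groups overlapped. The Stx12 call for steady-state stage IV over I ended without any 1 of steady-state stage I replicates 2 and 3 and steady-state stage IV replicate 3 (log2 0.56 to 0.63, edgeR adjusted p 0.119 to 0.146), and under library-total scaling, no low-count filter, the unassigned-read covariate, loss of the third steady-state pool and a fit of those groups alone. Stx16 ranged over 13.1 to 64 CPM and was lower under IL-33 averaged over the stages (log2 -0.66, edgeR adjusted p = 0.00623). With the unassigned-read covariate the Stx16 difference was log2 -0.16 (edgeR adjusted p = 0.946). Stx5a, which ranged over 96.5 to 189.9 CPM, and Stx6, over 21.1 to 61 CPM, were called in none of the 16 comparisons.

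Stxbp2 (chromosome 8, 3630955 to 3643644, plus strand), or Munc18-2, is the SM protein that binds Stx3 and Stx11, and its libraries differed little within a group. Stxbp2 under IL-33 held 327, 328 and 422 CPM at stage I, 369, 409 and 430.1 at stage II, 446.7, 478 and 511 at stage III, and 686, 733 and 682 at stage IV. Stxbp2 in steady state held 323, 343 and 324 CPM at stage I, 380.2, 398 and 456.5 at stage II, 874, 818 and 880.3 at stage III, and 598, 565 and 469.9 at stage IV. At stage III every IL-33 library lay below every steady-state library, and at stage IV every IL-33 library lay above every steady-state one. Stxbp2 at steady-state stage III was 2.08-fold higher (log2 1.06 ± 0.16 SE, edgeR adjusted p = 3.18e-05) than at stage II, then 1.58-fold lower (log2 -0.66 ± 0.16 SE, edgeR adjusted p = 0.012) at stage IV than at stage III. At IL-33 stage IV it was 1.46-fold higher (log2 0.55 ± 0.16 SE, edgeR adjusted p = 0.0125) than at stage III. At stage III it was 1.79-fold lower (log2 -0.84 ± 0.16 SE, edgeR adjusted p = 0.000369) under IL-33 than in steady state, while the stage IV difference was not called (log2 0.36 ± 0.16 SE, edgeR adjusted p = 0.146). The steps differed between conditions by log2 1.21 ± 0.23 (SE, edgeR adjusted p = 0.000677) for stage IV over III and by log2 -0.81 ± 0.23 (SE, edgeR adjusted p = 0.0328) for stage III over II. The Stxbp2 call for steady-state stage IV over III ended without any 1 of steady-state stage IV replicates 2 and 3 (log2 -0.57 to -0.56, edgeR adjusted p 0.056 to 0.0736), and under library-total scaling, the unassigned-read covariate, loss of the third steady-state pool and a fit of those groups alone. The Stxbp2 call for IL-33 stage IV over III ended without IL-33 stage III replicate 1 (log2 0.50, edgeR adjusted p = 0.0633), and under library-total scaling and no low-count filter. The Stxbp2 call for the step difference III over II ended without any 1 of IL-33 stage II replicates 2 and 3, IL-33 stage III replicates 1, 2 and 3, steady-state stage II replicates 1 and 2 and steady-state stage III replicate 1 (log2 -0.86 to -0.76, edgeR adjusted p 0.0536 to 0.0977), and under library-total scaling, no low-count filter and a fit of those groups alone.

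The start regions of Stx3 and Stxbp2 are shown because their proteins are partners and both genes had a step to stage IV that differed between conditions. They lie at chr19:11819354-11819653 on the minus strand and at chr8:3630859-3631158 on the plus strand in the same build and source. Capitals mark the only motif match in each window, GATAA on the opposite strand for Stx3 and CACGTG, which reads the same on both strands, for Stxbp2.
Stx3: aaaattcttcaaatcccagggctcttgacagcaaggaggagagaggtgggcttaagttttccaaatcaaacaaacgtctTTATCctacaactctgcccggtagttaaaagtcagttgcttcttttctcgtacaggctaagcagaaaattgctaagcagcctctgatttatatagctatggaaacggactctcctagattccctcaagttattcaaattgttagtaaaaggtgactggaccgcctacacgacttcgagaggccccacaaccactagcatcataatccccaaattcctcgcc
Stxbp2: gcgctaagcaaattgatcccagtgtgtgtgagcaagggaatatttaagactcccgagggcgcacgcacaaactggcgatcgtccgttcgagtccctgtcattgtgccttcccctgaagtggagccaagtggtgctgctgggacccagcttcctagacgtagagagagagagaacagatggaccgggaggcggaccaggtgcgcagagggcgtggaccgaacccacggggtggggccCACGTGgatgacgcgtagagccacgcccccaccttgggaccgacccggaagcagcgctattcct

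RefSeq held windows for 30 of the 37 member genes, 40 windows in all, and not for Vamp2, Vamp3, Vamp7, Unc13d, Rab27b, Rab37 or Rab44. CACGTG, the core of the E-box that TFEB and related factors bind, was found in 8 of the 40 windows (20%), against 7.15% of all 32851 windows of that length. The 8 belonged to Hps1, Napa, Nsf, Rab27a, Rab5a, Stx6, Stxbp2 and Vamp4. GATAA, the core of the GATA factors' motif, was found in 3 of the 40 (7.5%), those of Rab7, Stx3 and Sytl3, against 25.4% of all windows. A match is a string of letters and not a bound site.

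Stxbp3 (chromosome 3, 108793176 to 108840526, minus strand), or Munc18c, the SM partner of Stx4, was lower under IL-33 at stage III and rose over the course in both conditions. Stxbp3 under IL-33 held 19.5, 11 and 6.14 CPM at stage I, 18, 16.5 and 13 at stage II, 25.6, 27 and 22.6 at stage III, and 34.7, 31.8 and 32 at stage IV. Stxbp3 in steady state held 4.57, 15.3 and 16.2 CPM at stage I, 27.6, 26.3 and 53.5 at stage II, 95.1, 73.7 and 123 at stage III, and 65, 58.4 and 61.7 at stage IV. At stages II, III and IV all IL-33 libraries lay below all steady-state libraries. Stxbp3 was 3.88-fold lower (log2 -1.95 ± 0.41 SE, edgeR adjusted p = 0.000783) under IL-33 than in steady state at stage III, and the values at stage II (log2 -1.18 ± 0.40 SE, edgeR adjusted p = 0.0713) and stage IV (log2 -0.91 ± 0.40 SE, edgeR adjusted p = 0.141) did not pass. In steady state it was 2.71-fold higher (log2 1.44 ± 0.40 SE, edgeR adjusted p = 0.00768) at stage III than at stage II and 2.96-fold higher (log2 1.57 ± 0.41 SE, edgeR adjusted p = 0.0275) at stage II than at stage I. The Stxbp3 call for steady-state stage II over I ended without any 1 of steady-state stage I replicates 1 and 2 and steady-state stage II replicate 3 (log2 1.16 to 1.77, edgeR adjusted p 0.0513 to 0.153), and under library-total scaling, loss of the third steady-state pool and a fit of those groups alone. Over the IL-33 course it gave log2 1.42 ± 0.40 (SE, edgeR adjusted p = 0.00634), against log2 2.35 ± 0.42 (SE, edgeR adjusted p = 8.75e-05) in steady state.

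Unc13d (chromosome 11, 116062095 to 116077961, minus strand), or Munc13-4, which primes granules and binds Rab27a, was called in none of the 16 comparisons. Unc13d under IL-33 held 221, 132 and 228 CPM at stage I, 244, 261 and 292 at stage II, 244, 302 and 334 at stage III, and 336, 359 and 250.1 at stage IV. Unc13d in steady state held 259, 231 and 198 CPM at stage I, 245, 232 and 135 at stage II, 455.3, 411 and 123 at stage III, and 383, 295 and 214 at stage IV. The third steady-state library was the lowest of its group at every stage, and the conditions overlapped at every stage. Its difference at stage III was log2 -0.17 ± 0.34 (SE, edgeR adjusted p = 0.737).

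Among the secretory Rabs, Rab27a (chromosome 9, 73044854 to 73097629, plus strand), which docks granules in cytotoxic lymphocytes and neutrophils, had 1 call. Rab27a under IL-33 held 113, 32.7 and 43.2 CPM at stage I, 120.4, 90.2 and 101 at stage II, 106, 141 and 105 at stage III, and 89.8, 96.8 and 180.2 at stage IV. Rab27a in steady state held 86.4, 105 and 87.5 CPM at stage I, 115, 99.2 and 149.8 at stage II, 126, 122 and 112 at stage III, and 119.8, 147 and 166 at stage IV. Groups overlapped at every stage and in most steps. It rose over the IL-33 course (stage IV over I, log2 0.95, edgeR adjusted p = 0.0248), with overlapping groups. The Rab27a call for IL-33 stage IV over I ended without any 1 of IL-33 stage I replicates 2 and 3 and IL-33 stage IV replicate 3 (log2 0.56 to 0.74, edgeR adjusted p 0.128 to 0.22), and under library-total scaling, the unassigned-read covariate and a fit of those groups alone.

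Rab27b (chromosome 18, 69979131 to 70141605, minus strand), the close relative of Rab27a on mast cell and platelet granules, was thinly counted in both conditions. It reached 0 counts at steady-state stage IV. Rab27b under IL-33 held 18.6, 12.7 and 14.2 CPM at stage I, 8.19, 9.74 and 11.6 at stage II, 8.22, 5.23 and 4.65 at stage III, and 0.193, 0.983 and 0.0909 at stage IV. Rab27b in steady state held 0.794, 3.84 and 1.12 CPM at stage I, 0, 0.305 and 3.61 at stage II, 0.121, 0 and 0 at stage III, and 0, 0 and 0 at stage IV. At every stage the IL-33 libraries lay above the steady-state ones, but edgeR called that difference at stage III alone. At stage III the IL-33 group had 232 counts and the steady-state group 1, a ratio of 157 with a counting interval of 27.9 to 6223. At stage IV the IL-33 group had 14 counts, 11 of them in its second library, against 0, at least 4.25-fold higher against a floor of 3 counts over the group. In steady state stage III had 1 count and stage II 44, a 38.4-fold lower level with an interval of 6.54 to 1551, and stage IV had 0 counts against 68 at stage I, at least 19.1-fold lower. The third library held most of the stage II counts. Under IL-33, stage IV was called lower than stage I, with 14 counts against 576, and that call held in every alternative and omission. The edgeR adjusted p was 0.00119 for IL-33 over steady state at stage III, 0.00191 for steady-state stage IV over I, 0.0167 for steady-state stage III over II and 0.016 for IL-33 stage IV over III, with 14 counts against 232. The call for IL-33 stage IV over III ended without either of stage IV replicates 1 and 3 (edgeR adjusted p 0.0617 to 0.0721). The steady-state call for stage III over II ended without any 1 of stage II replicate 3 and stage III replicates 2 and 3 (edgeR adjusted p 0.0586 to 0.391), without the third pool, and with the replicate number as a block (edgeR adjusted p = 0.0671).

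Rab37 (chromosome 11, 115091431 to 115162236, plus strand), a Rab of mast cell and neutrophil granules, changed sides between stages III and IV. Rab37 under IL-33 held 133, 136 and 150.1 CPM at stage I, 126, 147 and 151 at stage II, 175, 186 and 203 at stage III, and 374, 440.6 and 376 at stage IV. Rab37 in steady state held 143, 187 and 140.5 CPM at stage I, 128, 126 and 125 at stage II, 229, 294 and 319.5 at stage III, and 126, 199 and 169.9 at stage IV. At stage III every IL-33 library lay below every steady-state one, and at stage IV every IL-33 library lay above every steady-state one. Rab37 at IL-33 stage IV was 2.11-fold higher (log2 1.08 ± 0.19 SE, edgeR adjusted p = 0.000165) than at stage III, while at steady-state stage IV it was 1.7-fold lower (log2 -0.77 ± 0.19 SE, edgeR adjusted p = 0.0122) than at stage III. The 2 steps differed by log2 1.84 ± 0.27 (SE, edgeR adjusted p = 5.43e-05). Rab37 was 2.41-fold higher (log2 1.27 ± 0.19 SE, edgeR adjusted p = 9.12e-05) under IL-33 than in steady state at stage IV and 1.49-fold lower (log2 -0.58 ± 0.19 SE, edgeR adjusted p = 0.0216) at stage III. In steady state it had risen at stage III over II (log2 1.15, edgeR adjusted p = 7.37e-05). The Rab37 call for steady-state stage IV over III ended without any 1 of steady-state stage III replicate 3 and steady-state stage IV replicate 1 (log2 -0.66 to -0.61, edgeR adjusted p 0.051 to 0.0581), and under library-total scaling, loss of the third steady-state pool and a fit of those groups alone. The Rab37 call for IL-33 over steady state at stage III ended without any 1 of IL-33 stage III replicates 1 and 2 and steady-state stage III replicates 2 and 3 (log2 -0.56 to -0.47, edgeR adjusted p 0.0637 to 0.0889), and under library-total scaling, no low-count filter, the unassigned-read covariate, loss of the third steady-state pool and a fit of those groups alone. Rab37 overlaps Cd300lf on the opposite strand, without shared exonic bases.

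Rab3d (chromosome 9, 21907491 to 21918192, minus strand), a Rab of secretory granules in exocrine and mast cells, fell at the last steady-state step. Rab3d under IL-33 held 141, 87.7 and 142 CPM at stage I, 134, 125 and 169 at stage II, 142, 135 and 179 at stage III, and 185, 222 and 212 at stage IV. Rab3d in steady state held 92.2, 119 and 111 CPM at stage I, 148, 169.7 and 158 at stage II, 227, 256 and 180.1 at stage III, and 100.3, 117 and 68.2 at stage IV. At stage IV every IL-33 library lay above every steady-state one. Rab3d at steady-state stage IV was 2.32-fold lower (log2 -1.21 ± 0.23 SE, edgeR adjusted p = 0.0016) than at stage III, and the IL-33 step was log2 0.44 ± 0.23 (SE, edgeR adjusted p = 0.155). The steps differed by log2 1.65 ± 0.32 (SE, edgeR adjusted p = 0.000889), and at stage IV Rab3d was 2.16-fold higher (log2 1.11 ± 0.23 SE, edgeR adjusted p = 0.00206) under IL-33 than in steady state. Over the IL-33 course it rose (log2 0.74, edgeR adjusted p = 0.011). The Rab3d call for steady-state stage IV over III ended under a fit of those groups alone. The Rab3d call for IL-33 stage IV over I ended without IL-33 stage I replicate 2 (log2 0.54, edgeR adjusted p = 0.0737), and under library-total scaling. The Rab3d call for IL-33 over steady state at stage IV ended under the unassigned-read covariate. Its relative Rab3a, known from synaptic vesicles, ranged over 1.27 to 10.5 CPM and was called in no comparison.

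Rab44 (chromosome 17, 29114145 to 29148980, plus strand), a large Rab described in mouse mast cells, was among the highest members per length and fell in steady state. Rab44 under IL-33 held 954, 447.2 and 914 CPM at stage I, 1011, 1076 and 1165 at stage II, 976, 1006 and 1109.6 at stage III, and 1098, 1148 and 757 at stage IV. Rab44 in steady state held 1544, 1485 and 1137 CPM at stage I, 1055, 1093 and 678 at stage II, 904, 521 and 269.7 at stage III, and 881, 770.2 and 494 at stage IV. At stage III the IL-33 libraries lay above the steady-state ones, with the third pool the lowest at every stage. Rab44 was 1.82-fold higher (log2 0.87 ± 0.33 SE, edgeR adjusted p = 0.0488) under IL-33 than in steady state at stage III, and 1.94-fold lower (log2 -0.96 ± 0.33 SE, edgeR adjusted p = 0.0239) at steady-state stage IV than at stage I. The Rab44 call for IL-33 over steady state at stage III ended without any 1 of IL-33 stage III replicates 1, 2 and 3 and steady-state stage III replicates 2 and 3 (log2 0.54 to 0.91, edgeR adjusted p 0.0787 to 0.211), and under RLE factors, the unassigned-read covariate, loss of the third steady-state pool and a fit of those groups alone. The Rab44 call for steady-state stage IV over I ended without any 1 of steady-state stage I replicates 1 and 2 and steady-state stage IV replicate 3 (log2 -0.91 to -0.75, edgeR adjusted p 0.062 to 0.112), and under the unassigned-read covariate.

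Of the Rabs of endosomes and general traffic, Rab11a (chromosome 9, 64715299 to 64737758, minus strand), the Rab of recycling endosomes, had the widest range of group means. Rab11a under IL-33 held 159, 268 and 181 CPM at stage I, 211, 282 and 266 at stage II, 369, 379.6 and 391 at stage III, and 758, 838 and 756 at stage IV. Rab11a in steady state held 152, 184 and 215 CPM at stage I, 246, 196 and 417 at stage II, 842, 699.8 and 977 at stage III, and 595, 385 and 687 at stage IV. Under IL-33 stage IV stood above stage III by far, and in steady state stage III was the highest. Rab11a at IL-33 stage IV was 2.06-fold higher (log2 1.04 ± 0.26 SE, edgeR adjusted p = 0.00415) than at stage III, and at steady-state stage III it was 2.93-fold higher (log2 1.55 ± 0.27 SE, edgeR adjusted p = 0.000107) than at stage II. At stage III it was 2.21-fold lower (log2 -1.14 ± 0.26 SE, edgeR adjusted p = 0.00184) under IL-33 than in steady state, and the stage IV steps differed by log2 1.64 ± 0.37 (SE, edgeR adjusted p = 0.00298). Each of these 4 calls held in every alternative and omission.

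Rab7 (chromosome 6, 87999106 to 88045270, minus strand), the Rab of late endosomes and lysosomes, was highest at steady-state stage III. Rab7 under IL-33 held 339, 298 and 297 CPM at stage I, 391.9, 362 and 312 at stage II, 436.8, 427 and 371 at stage III, and 533, 553 and 472 at stage IV. Rab7 in steady state held 177, 267 and 272 CPM at stage I, 339, 436.9 and 460.3 at stage II, 595, 581 and 781 at stage III, and 462, 382 and 213 at stage IV. Every library of steady-state stage IV and of IL-33 stage III lay below those of steady-state stage III. Rab7 at steady-state stage IV was 1.85-fold lower (log2 -0.89 ± 0.23 SE, edgeR adjusted p = 0.0185) than at stage III, and at stage III it was 1.58-fold lower (log2 -0.66 ± 0.23 SE, edgeR adjusted p = 0.0319) under IL-33 than in steady state. Rab7 also rose at steady-state stage III over II (log2 0.66, edgeR adjusted p = 0.0314), and the stage IV step differed by log2 1.22 ± 0.33 (SE, edgeR adjusted p = 0.0114). The Rab7 call for steady-state stage IV over III ended without any 1 of steady-state stage III replicate 3 and steady-state stage IV replicates 2 and 3 (log2 -0.83 to -0.63, edgeR adjusted p 0.0762 to 0.0936), and under library-total scaling, the unassigned-read covariate, loss of the third steady-state pool and a fit of those groups alone. The Rab7 call for IL-33 over steady state at stage III ended without any 1 of IL-33 stage III replicates 1, 2 and 3 and steady-state stage III replicate 3 (log2 -0.70 to -0.51, edgeR adjusted p 0.0618 to 0.133), and under library-total scaling and no low-count filter. The Rab7 call for steady-state stage III over II ended without any 1 of steady-state stage II replicates 1 and 2 and steady-state stage III replicate 3 (log2 0.52 to 0.71, edgeR adjusted p 0.0544 to 0.126), and under RLE factors, library-total scaling, loss of the third steady-state pool and a fit of those groups alone. The Rab7 call for the step difference IV over III ended under library-total scaling and loss of the third steady-state pool. Rab7 shares 204 exonic bases with an antisense gene.

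Rab8a, which carries vesicles to the plasma membrane, ranged over 164 to 588 CPM. It rose at steady-state stage III over II (log2 0.99, edgeR adjusted p = 0.000427) and was lower under IL-33 at stage III (log2 -0.70, edgeR adjusted p = 0.00698), and its stage IV step differed by log2 0.95 ± 0.27 (SE, edgeR adjusted p = 0.0161). The Rab8a call for IL-33 over steady state at stage III ended under library-total scaling. The Rab8a call for the step difference IV over III ended under library-total scaling and loss of the third steady-state pool. Rab5a, the early endosome Rab, ranged over 46.7 to 178 CPM and was never called. Its exchange factor Rabgef1 was never called either, and its 4 libraries of the third steady-state pool, at 62.8 to 91.7 CPM, lay above all other 20, at 7.17 to 40.0 CPM.

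The pair that takes spent SNARE complexes apart had 1 call. Napa, the NSF adaptor, ranged over 167 to 310.3 CPM and was never called. Nsf, the ATPase, ranged over 27.8 to 119 CPM and fell at IL-33 stage IV, where it was 1.87-fold lower (log2 -0.91 ± 0.28 SE, edgeR adjusted p = 0.0162) than at stage III. The Nsf call for IL-33 stage IV over III ended without any 1 of IL-33 stage III replicate 3 and IL-33 stage IV replicates 2 and 3 (log2 -0.89 to -0.74, edgeR adjusted p 0.0529 to 0.0889).

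Sytl1 (chromosome 4, 133253090 to 133263113, minus strand), a synaptotagmin-like effector that links Rab27 to the plasma membrane, rose at IL-33 stage IV and at steady-state stage III. Sytl1 under IL-33 held 54.1, 57.7 and 59 CPM at stage I, 56.4, 68.3 and 79.1 at stage II, 79.6, 99.3 and 111 at stage III, and 264, 333 and 273 at stage IV. Sytl1 in steady state held 59.1, 58.7 and 33.3 CPM at stage I, 68, 43.7 and 42.4 at stage II, 181, 248 and 103 at stage III, and 233, 194 and 143 at stage IV. IL-33 stage IV and steady-state stage III each lay above the stage before it in every library, with the third pool the lowest at steady-state stage III. Sytl1 at IL-33 stage IV was 3-fold higher (log2 1.59 ± 0.29 SE, edgeR adjusted p = 0.000232) than at stage III, and at steady-state stage III it was 3.45-fold higher (log2 1.79 ± 0.29 SE, edgeR adjusted p = 6.74e-05) than at stage II. Both calls held in every alternative and omission. At stage III it was 1.83-fold lower (log2 -0.88 ± 0.29 SE, edgeR adjusted p = 0.0212) under IL-33 than in steady state, with overlapping groups, and the stage IV steps differed by log2 1.49 ± 0.40 (SE, edgeR adjusted p = 0.0116). The Sytl1 call for IL-33 over steady state at stage III ended without any 1 of IL-33 stage III replicates 1 and 2 and steady-state stage III replicate 2 (log2 -0.89 to -0.55, edgeR adjusted p 0.0595 to 0.172), and under library-total scaling, the unassigned-read covariate and a fit of those groups alone. The Sytl1 call for the step difference IV over III ended under library-total scaling. Its relative Sytl3 ranged over 0 to 9.83 CPM, and rose over the IL-33 course (stage IV over I, log2 4.54, edgeR adjusted p = 0.0182) with 159 counts at stage IV against 7 at stage I. The highest Sytl3 group mean was 7.19 CPM at steady-state stage III (188 counts), against 4.98 CPM at IL-33 stage IV. No steady-state step of Sytl3 was called. The Sytl3 call for IL-33 stage IV over I ended without any 1 of IL-33 stage I replicates 1 and 2 and IL-33 stage IV replicate 1 (log2 3.75 to 4.43, edgeR adjusted p 0.0629 to 0.07), and under the unassigned-read covariate.

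Lyst (chromosome 13, 13590397 to 13778803, plus strand) is the gene mutated in Chediak-Higashi syndrome, in which granules become giant. After the thinly counted Rab27b and Sytl3, it had the largest ratio of highest to lowest group mean, 21.7. Lyst under IL-33 held 17.8, 8.99 and 9.26 CPM at stage I, 15.4, 17.5 and 18.7 at stage II, 42.4, 21.1 and 44 at stage III, and 114, 92.1 and 109.8 at stage IV. Lyst in steady state held 17.7, 19.9 and 31.5 CPM at stage I, 80.6, 66.4 and 82.2 at stage II, 235, 367 and 125 at stage III, and 204, 321 and 256 at stage IV. At every stage from II to IV all IL-33 libraries lay below all steady-state libraries. Lyst was 6.76-fold lower (log2 -2.76 ± 0.36 SE, edgeR adjusted p = 5.66e-06) under IL-33 than in steady state at stage III and 4.44-fold lower (log2 -2.15 ± 0.36 SE, edgeR adjusted p = 0.000613) at stage II. It was 2.47-fold lower (log2 -1.31 ± 0.34 SE, edgeR adjusted p = 0.0141) at stage IV. Over the course it was 11.3-fold higher (log2 3.50 ± 0.37 SE, edgeR adjusted p = 1.56e-07) at steady-state stage IV than at stage I, and 8.73-fold higher (log2 3.13 ± 0.37 SE, edgeR adjusted p = 4.7e-07) at IL-33 stage IV than at stage I. At IL-33 stage IV over III it gave log2 1.56 ± 0.35 (SE, edgeR adjusted p = 0.00156), and at steady-state stage IV over III log2 0.10 ± 0.34 (SE, edgeR adjusted p = 0.897), a difference of steps of log2 1.45 ± 0.48 (SE, edgeR adjusted p = 0.0372). In steady state it also rose at stage II over I (log2 1.73, edgeR adjusted p = 0.00521) and at stage III over II (log2 1.66, edgeR adjusted p = 0.000793). The Lyst call for IL-33 over steady state at stage IV ended without IL-33 stage IV replicate 2 (log2 -1.21, edgeR adjusted p = 0.0772), and under the unassigned-read covariate. The Lyst call for the step difference IV over III ended without any 1 of IL-33 stage III replicate 2, IL-33 stage IV replicates 1 and 3, steady-state stage III replicates 1 and 2 and steady-state stage IV replicates 1 and 3 (log2 1.02 to 1.47, edgeR adjusted p 0.0537 to 0.148), and under library-total scaling and a fit of those groups alone. The Lyst call for steady-state stage II over I ended under a fit of those groups alone.

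Hps1 (chromosome 19, 42755105 to 42779978, minus strand), a subunit of BLOC-3, which activates Rab32 and Rab38 in the making of lysosome-related organelles, fell over the steady-state course. Hps1 under IL-33 held 61.9, 33.6 and 55.6 CPM at stage I, 48.6, 51.9 and 60.4 at stage II, 40.0, 55.8 and 54.1 at stage III, and 55, 57.8 and 46.7 at stage IV. Hps1 in steady state held 107, 60.3 and 49.6 CPM at stage I, 29.3, 42.1 and 28.6 at stage II, 57.4, 31.2 and 13.8 at stage III, and 36.6, 33.4 and 23.6 at stage IV. Under IL-33 all 12 libraries lay between 33.6 and 61.9 CPM, and in steady state stage I held the highest single value. Hps1 at steady-state stage IV was 2.32-fold lower (log2 -1.21 ± 0.38 SE, edgeR adjusted p = 0.0125) than at stage I. The Hps1 call for steady-state stage IV over I ended without any 1 of steady-state stage I replicate 1 and steady-state stage IV replicate 3 (log2 -1.05 to -0.81, edgeR adjusted p 0.059 to 0.108), and under the unassigned-read covariate.

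Averaged over the 4 stages, IL-33 against steady state, Snap23 (log2 0.70, edgeR adjusted p = 8.83e-06) and Stx3 (log2 0.56, edgeR adjusted p = 0.000492) were higher. Rab27b was higher as well. Its sizes above are from counts at stages III and IV, and no size is given for its average. Vamp5 (log2 -2.19, edgeR adjusted p = 1.35e-09), Lyst (log2 -1.79, edgeR adjusted p = 6.9e-08), Stx11 (log2 -1.22, edgeR adjusted p = 0.000331), Stxbp3 (log2 -1.01, edgeR adjusted p = 0.000394), Vamp3 (log2 -0.63, edgeR adjusted p = 0.00514), Vamp2 (log2 -0.48, edgeR adjusted p = 0.00359) and Stx16 were lower. With the unassigned-read covariate all of these calls but that of Vamp5 ended: Snap23 came to log2 0.22 (edgeR adjusted p = 0.695), and Vamp2 turned to log2 0.16 (edgeR adjusted p = 0.85).

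Other genes of the pathway were followed in lists drawn up by function. Genes named from a list were picked by small edgeR adjusted p, so they do not stand for the whole list. The shares of all genes that rose and fell, given above, are 17.2% and 17.4% at steady-state stage III over II and 13.1% and 16% at IL-33 stage IV over III. Of 40 other Rabs tested, 13 rose and 4 fell at that steady-state step (median log2 0.53, against 0 over all genes). At the IL-33 step 9 rose and 1 fell (median log2 0.58, against 0.01). At stage III 2 were higher and 10 lower under IL-33, where 18.5% of all genes were higher and 14.9% lower. In 9 the stage IV step was more positive under IL-33 and in 0 more negative, against 8.44% and 10.3% of all genes. Rab29, a Rab of the trans-Golgi network and lysosomes, was lower under IL-33 at stage III (log2 -2.11 ± 0.26 SE, edgeR adjusted p = 3.1e-06) and rose at IL-33 stage IV over III (log2 1.62 ± 0.26 SE, edgeR adjusted p = 5.84e-05) and at steady-state stage III over II (log2 1.87 ± 0.26 SE, edgeR adjusted p = 1.19e-05). Rab32, which BLOC-3 activates, was lower under IL-33 at stage III (log2 -2.03 ± 0.28 SE, edgeR adjusted p = 9.04e-06). Rab31, a trans-Golgi and endosomal Rab, fell at steady-state stage IV over III (log2 -1.57 ± 0.22 SE, edgeR adjusted p = 5.45e-05) and was higher under IL-33 at stage IV (log2 1.43 ± 0.22 SE, edgeR adjusted p = 0.000103). Each of these calls held in every omission of 1 library.

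Among 17 genes of the HPS, BLOC and AP-3 complexes, which sort cargo to lysosome-related organelles, 7 rose and 0 fell at steady-state stage III over II (median log2 0.58), and 5 rose and 2 fell at IL-33 stage IV over III (median log2 0.15). Bloc1s1, Bloc1s2 and Bloc1s3, subunits of BLOC-1, rose at both steps. Bloc1s2 is an example, at IL-33 stage IV over III (log2 1.13 ± 0.24 SE, edgeR adjusted p = 0.000865) and at steady-state stage III over II (log2 1.28 ± 0.24 SE, edgeR adjusted p = 0.000251). Snapin, another BLOC-1 subunit, was lower under IL-33 at stage III (log2 -1.32 ± 0.25 SE, edgeR adjusted p = 0.000298) and its stage IV step was more positive under IL-33 (log2 1.69 ± 0.35 SE, edgeR adjusted p = 0.0014). The AP-3 subunit genes Ap3m1 (log2 -1.08 ± 0.27 SE, edgeR adjusted p = 0.00464) and Ap3s1 (log2 -0.94 ± 0.25 SE, edgeR adjusted p = 0.0066) were the 2 that fell at IL-33 stage IV over III.

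Of 21 other SNARE genes tested, 6 rose and 1 fell at steady-state stage III over II (median log2 0.04), and 4 rose and 1 fell at IL-33 stage IV over III (median log2 -0.28). Snap47, a SNAP-25 relative, rose at both (IL-33, log2 1.80 ± 0.32 SE, edgeR adjusted p = 0.000195, and steady state, log2 1.66 ± 0.33 SE, edgeR adjusted p = 0.000453), as did Use1, a SNARE of the endoplasmic reticulum (IL-33, log2 1.60 ± 0.29 SE, edgeR adjusted p = 0.000212, and steady state, log2 1.11 ± 0.29 SE, edgeR adjusted p = 0.0044). Over stage IV against I, 4 of the 21 rose and 7 fell in steady state, where 21.1% and 22.7% of all genes did. Under IL-33 4 rose and 5 fell, where 21.2% and 22.9% of all genes did. Of 18 other SM, tethering and priming genes tested, 3 rose and 2 fell at steady-state stage III over II (median log2 -0.15), and 1 rose and 4 fell at IL-33 stage IV over III (median log2 -0.84). Stxbp5, or tomosyn, which holds SNAREs in inactive complexes, was among those that fell at IL-33 stage IV (log2 -1.16 ± 0.25 SE, edgeR adjusted p = 0.0013). Of the 9 genes of the exocyst, which tethers vesicles to the plasma membrane, 1 was higher and 2 lower under IL-33 averaged over the stages (33.3% called, where 38.1% of all genes were), Exoc6 (log2 0.71 ± 0.14 SE, edgeR adjusted p = 0.000395) and Exoc6b (log2 -1.29 ± 0.25 SE, edgeR adjusted p = 0.000371) with Exoc8 (log2 -0.78 ± 0.19 SE, edgeR adjusted p = 0.00262). Of 16 synaptotagmins, the calcium sensors of regulated release, only 2, Syt3 and Syt11, had enough counts to be tested.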

How the data were processed

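Bulk RNA was counted in 24 libraries of sorted eosinophils, made with the SMART-Seq v4 kit (17 amplification cycles) and Nextera XT tagmentation, per the labels' protocols. The strand is not kept. The deposited files hold raw counts of reads per gene, without molecular identifiers. STAR 2.6.1a, mm10 and DESeq2 stand in the submitters' processing notes, while for the counter and annotation the notes name nothing. Beside 24982 symbols each file has 2 rows without a gene, unassigned and ambiguous reads (9.19% to 30.5% and 1.73% to 2.60% of a library's reads), which stayed out of totals and tests.

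The test was edgeR 4.0.16 (R 4.3.3): filter by group (12743 genes left), TMM scaling and a single quasi-likelihood fit with 8 group means, which served 16 comparisons, with Benjamini-Hochberg adjustment over all genes tested. The SE is the log2 change divided by the root of its F statistic. Precision rests on a spread estimated for each gene over all 24 libraries and shared by the 8 groups of 3 libraries. The libraries held 8335138 to 14909453 gene counts each. Libraries outside a comparison thus bear on its SE and p as well. Floors (3 counts) and counting intervals (95%) cover counting error only. No pair of replicates agreed within counting error (chi-square per degree of freedom 21.0 to 130.0). On data simulated for IL-33 stage II against I (12486 genes), 20% of genes changed by log2 1 and 66% of those changed by log2 2 were recovered, and 0.0163% of unchanged genes were called.

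The alternatives were DESeq2 1.42.0, relative log expression (RLE) factors, library totals as scaling, no filter on low counts, a fit of the compared groups alone, the replicate number as a block, a covariate for unassigned reads, the fit without the third steady-state pool, and omission of each library. Replicate numbers were taken to pair libraries where all 3 correlations of deviations from the group means passed 0.1. They did at IL-33 stage II over I (0.15 to 0.24) and III over II (0.13 to 0.24), and at steady-state stage II over I (0.12 to 0.30), IV over III (0.11 to 0.22) and IV over I (0.12 to 0.19), and not elsewhere. IL-33 stage IV over III (0.05 to 0.10) and steady-state stage III over II (0.06 to 0.16) missed that bar. There too all 6 libraries correlated best with the library of their own number. This pairing was read off the data, as the labels hold numbers alone.

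The members and lists were chosen with earlier results of these data known. Per-library values are given for a panel of 15 members and for the 9 others called with a log2 change of at least 1 in some step, stage comparison or interaction, and the rest by range and calls. Symbols were placed with GENCODE M21 on GRCm38 (24498 matched), and start regions are RefSeq's on GRCm38.p6. Plots used matplotlib 3.10.9 (Python 3.11.15).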

Additional observations from a re-analysis of the deposited data

Results flagged for a closer look

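In 14 tests the effect of a step of maturation on a member differed between IL-33 and steady state (edgeR adjusted p under 0.05 for the interaction). For stage IV over III the differences, IL-33 minus steady state on the log2 scale, were 1.98 for Stx3, 2.16 for Stx11, 1.33 for Stx7, 1.21 for Stxbp2, 1.84 for Rab37, 1.65 for Rab3d, 1.64 for Rab11a, 1.22 for Rab7, 0.95 for Rab8a, 1.04 for Snap23, 1.49 for Sytl1, 1.45 for Lyst and 1.35 for Vamp5.

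Each of the 2 steps behind a difference is given here on the log2 scale, IL-33 first and then steady state, and not every single step passed its own test. In 10 of the 13 the value was above 0 under IL-33 and below 0 in steady state, by little for Stx3 under IL-33 and for Snap23 in steady state: Stx3 (0.06 and -1.92), Stx11 (1.11 and -1.05), Stx7 (0.59 and -0.74), Stxbp2 (0.55 and -0.66), Rab37 (1.08 and -0.77), Rab3d (0.44 and -1.21), Rab11a (1.04 and -0.59), Rab7 (0.34 and -0.89), Rab8a (0.49 and -0.46) and Snap23 (0.95 and -0.08). For Sytl1 (1.59 and 0.10), Lyst (1.56 and 0.10) and Vamp5 (1.78 and 0.42) both values were above 0 and the IL-33 one was the larger.

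For stage III over II the step of Stxbp2 was 0.25 under IL-33 and 1.06 in steady state, a difference of -0.81 (edgeR adjusted p = 0.0328). Single libraries were not tested within groups of 3.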

How the results depend on the processing

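Of the 136 calls of single members, scaling by library totals ended 41, the unassigned-read covariate 35 with 1 more reversed, the fit without the third steady-state pool 26, no filter on low counts 14, RLE factors 3 and the replicate block 1. Fits of the compared groups alone ended 30 of 124. Counts of members called changed by over 1.5 times as follows, and the causes were not tested. Fits of the compared groups alone called 0 at IL-33 stage II over I, 5 at III over II, and in steady state 0 at II over I, 10 at III over II and 1 at IV over III, with 0 for the step difference III over II. Library totals gave 1 at steady-state stage II over I, 3 at IV over III, 0 for the step difference III over II and 6 for IV over III. No filter gave 0 at IL-33 stage II over I, 1 between conditions at stage I and 0 for the step difference III over II. The unassigned-read covariate gave 0 at IL-33 stage II over I, 3 at steady-state stage IV over III, 0, 11 and 2 between conditions at stages I, III and IV, 1 on average and 2 for the step difference III over II. Under that covariate the Vamp2 difference between conditions, averaged over stages, turned to log2 0.16 (edgeR adjusted p = 0.85). Without the third steady-state pool 2 were called at steady-state stage II over I, 2 at IV over III and 4 for the step difference III over II. DESeq2 called 0 at IL-33 stage II over I, 7 at steady-state stage II over I, 6 between conditions at stage II, and 1 and 3 for the step differences II over I and III over II. The replicate block gave 1 for the step difference II over I and 5 for III over II, and changed no other count by over 1.5 times.

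Leaving out 1 library at a time, IL-33 calls were 0 to 0 at stage II over I, 0 to 0 at III over II, 8 to 11 at IV over III and 18 to 20 at IV over I. Steady-state calls were 1 to 4, 15 to 19, 3 to 7 and 16 to 21 for II over I, III over II, IV over III and IV over I. Between conditions they were 1 to 4, 2 to 4, 11 to 17 and 5 to 7 at stages I to IV and 10 to 14 on average, and for the step differences 0 to 0, 0 to 3 and 10 to 13.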
